A study of Homo sapiens with 4 samples.

Results

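The 10 genes described here encode SNARE proteins of endosomes and of the trans-Golgi network: STX7, STX8, VTI1B, VAMP7, VAMP8, STX12, STX16, STX6, STX10 and VTI1A. They were taken by symbol from the 28307 gene symbols of the deposited count files, and all 10 were found, each on a single row. The set was put together around STX7 and selected on measured values: the CPM of CRISPRi and control libraries in these data were known when it was chosen. The fold changes of the 9 genes that could be fitted are therefore given as a description and support nothing by themselves. Counts of members called are printed only beside the share over all genes.

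SNARE proteins drive the fusion of membranes. A SNARE on the vesicle (an R-SNARE, mostly of the VAMP family) zips together with Q-SNAREs on the target membrane (syntaxins and their partners, of the Qa, Qb and Qc classes) into a tight helical bundle that pulls the membranes into contact. Each trafficking step uses its own combination, and after fusion the ATPase NSF with its SNAP adaptors takes the bundle apart. In neurons, endosomal SNAREs serve the recycling of receptors and the delivery of cargo to lysosomes.

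The cells were excitatory neurons made from i3N-WTC11, an established human iPSC line. In both groups they carried dCas9-KRAB, a Cas9 that cannot cut DNA joined to a repressor domain, driven by a CAG promoter from an intron of CLYBL. The CRISPRi group (2 libraries) received lentivirus with guide RNAs against 1 transposable element of the MIR family on chromosome 11, with 2 guides designed per element, and the control group (2 libraries) received the empty guide vector. Virus was given to neurons differentiated for 2 weeks at a multiplicity of infection of about 3, puromycin (0.5 μg/mL) was applied for 4 days, and polyA RNA was collected 7 days after the virus. The sources used here do not say which guide each CRISPRi library carried. The labels call the replicates biologically independent, and all come from 1 cell line.

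Libraries held 44839748 and 41560282 gene counts in CRISPRi replicates 1 and 2, and 944993 and 39325038 in control replicates 1 and 2. In control replicate 1 a single count equals 1.06 CPM (counts scaled by the total of each library) and 3 counts equal 3.17 CPM, so its values for low genes carry a wide counting error. Among markers, 10 neuronal genes summed to 16899 and 17544 CPM in CRISPRi replicates 1 and 2, against 14746 and 17019 CPM in control replicates 1 and 2. For 6 genes of excitatory neurons the sums were 599 and 613 CPM in CRISPRi libraries, against 569 and 616 CPM in controls. Both sums were lowest in control replicate 1. Genes of neural progenitors summed to between 959 and 1008 CPM, mesenchymal genes to between 69.8 and 90.3 CPM, oligodendrocyte genes to between 26.0 and 30.3 CPM and pluripotency genes to between 17.99 and 22.9 CPM. Astrocyte genes reached at most 3.17 CPM and microglial genes at most 1.06 CPM. Control replicate 1 also stood apart in 10 genes of dividing cells, which summed to 70.1 and 75.0 CPM in CRISPRi replicates 1 and 2 and to 422 and 75.7 CPM in control replicates 1 and 2. The part of these marker differences in the results was not tested. Each member is given by library, and each fitted member also with control replicate 1 left out.

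Of the 9 fitted members, STX7 had the lowest fold change with all 4 libraries in the fit. It encodes syntaxin 7, the Qa-SNARE of late endosomes, which acts in the fusion of late endosomes with each other and with lysosomes. The gene lies on chromosome 6 (hg38, 132445869 to 132513472, minus strand). It had 2945 and 2762 counts in CRISPRi replicates 1 and 2, against 114 and 5921 counts in control replicates 1 and 2. Scaled to depth these were 65.7 and 66.5 CPM in CRISPRi neurons, against 121 and 151 CPM in control neurons. The CRISPRi libraries lay close together, and both lay below both controls, including the shallow one, whose exact Poisson 95% interval ran from 99.5 to 145 CPM and covers counting error only.

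STX7 averaged 66.1 ± 0.551 CPM under CRISPRi, against 136 ± 21.2 CPM under the empty vector (SD, n = 2 each), so that CRISPRi neurons stood at 48.7% of the control level. The fitted log2 fold change (CRISPRi over control, weighted by depth) was -1.07 with a standard error of 0.11. Leaving out control replicate 1 gave -1.18, and leaving out control replicate 2 gave -0.84. In bulk RNA, fewer cells that express a gene and less RNA per cell cannot be told apart.

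**Figure D1:**
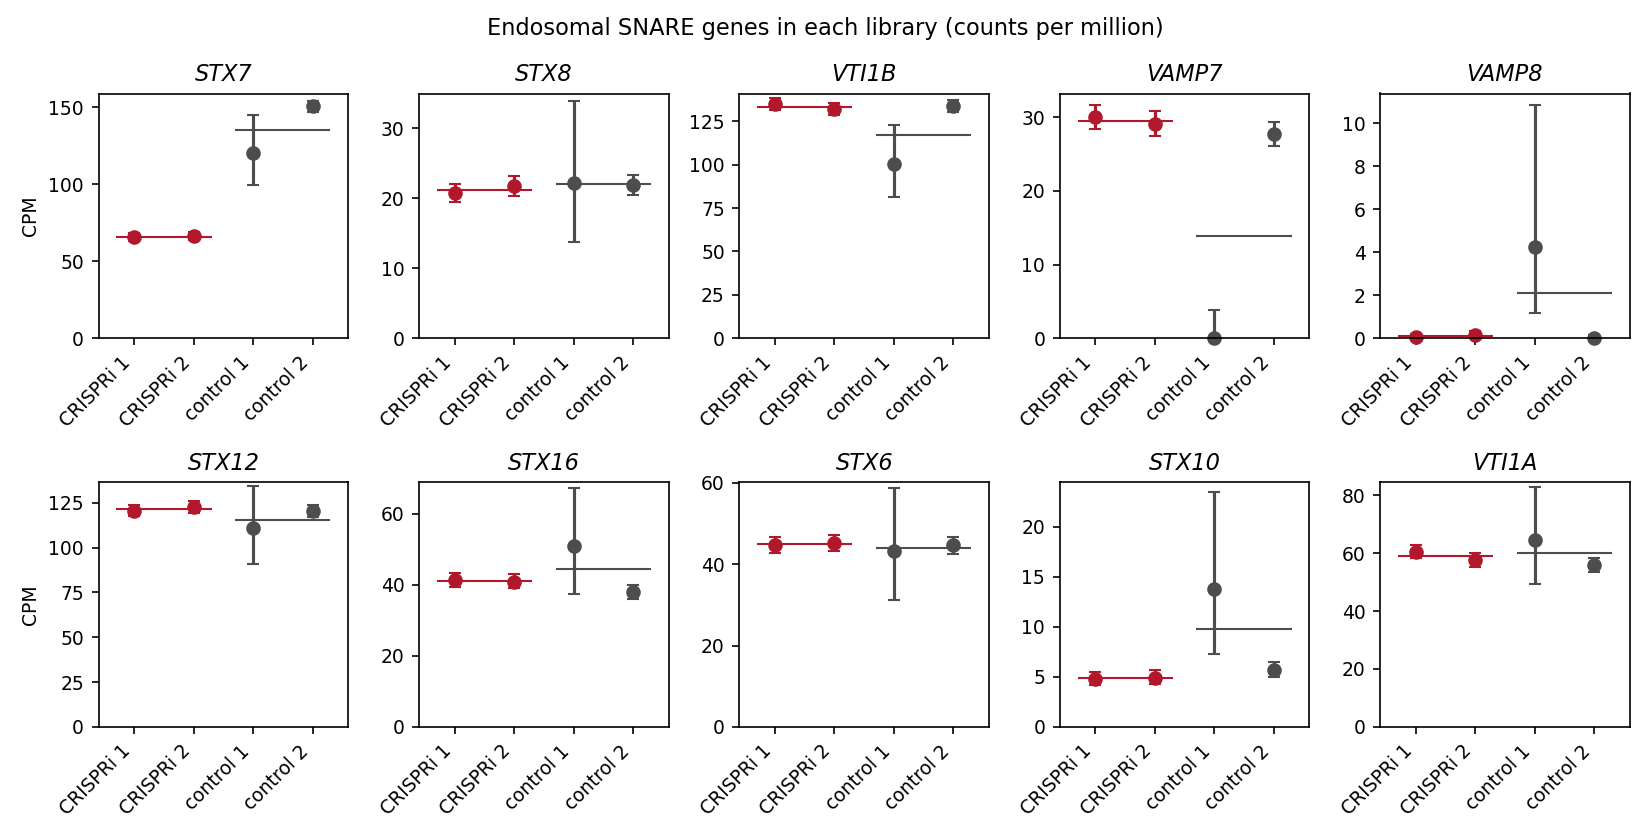
CPM (counts scaled by library total, vertical axis from 0) of the 10 SNARE genes in each library, with CRISPRi libraries in red and control libraries in grey. Bars are exact Poisson 95% intervals for counting error and lines are group means. STX7 lies at 65.7 and 66.5 CPM in CRISPRi libraries and at 121 and 151 CPM in controls, VAMP7 is at 0 in control replicate 1, and the intervals of that library are the widest.

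The deposited files also give FPKM, a level scaled by transcript length as well as by library total. On that scale STX7 was at 5.25 and 5.38 FPKM in CRISPRi replicates 1 and 2, against 7.43 and 10.6 FPKM in control replicates 1 and 2. Dividing CPM by FPKM gives the transcript length that the authors' values imply. For STX7 it was 12.5 and 12.4 kb in CRISPRi libraries, against 16.2 and 14.2 kb in controls. GENCODE release 29 lists transcripts of STX7 of up to 15791 bases, which makes it the longest of the 10 messages. The 16.2 kb implied in control replicate 1 exceeds that length, so the FPKM of STX7 in this library is uncertain. The longest implied length of STX7 exceeded the shortest 1.31-fold. Among the other members with at least 13 counts in every library, that ratio was at most 1.07, in VTI1A. The files name 4 and 5 transcripts for STX7 in CRISPRi replicates 1 and 2, against 1 and 4 in control replicates 1 and 2. How transcripts were chosen and weighted is not given in the sources used here, so the mix of STX7 transcripts cannot be read from these values.

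Its Q-SNARE partners in the late endosomal bundle had fold changes closer to 0. STX8, the Qc-SNARE of that bundle, was at 20.7 and 21.8 CPM in CRISPRi replicates 1 and 2, against 22.2 and 21.8 CPM in control replicates 1 and 2. All 4 values lie within the counting error of the shallow library (13.8 to 34.0 CPM), and the log2 fold change was -0.03 (SE 0.12), and -0.03 again with control replicate 1 left out. VTI1B, the Qb-SNARE, was at 135 and 132 CPM in CRISPRi replicates 1 and 2, against 101 and 134 CPM in control replicates 1 and 2. Here control replicate 2 lay between the CRISPRi libraries and control replicate 1 lay below all, with a log2 fold change of 0.13 (SE 0.13) that became 0.00039 once control replicate 1 was left out, and 0.44 once control replicate 2 was. The gene ARG2 overlaps VTI1B on the opposite strand. It had 2343 and 2084 counts in CRISPRi replicates 1 and 2, against 48 and 1900 counts in control replicates 1 and 2. Whether ARG2 and VTI1B share reads was not tested.

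The level of STX7 was also set against that of its partners in each library. The FPKM ratio of STX7 to STX8 was 0.214 and 0.209 in CRISPRi replicates 1 and 2, against 0.273 and 0.412 in control replicates 1 and 2. The ratio of STX7 to VTI1B was 0.205 and 0.215 in CRISPRi replicates 1 and 2, against 0.391 and 0.419 in control replicates 1 and 2. Both ratios were lower in both CRISPRi libraries than in either control. VTI1B itself was at 25.6 and 25.1 FPKM in CRISPRi replicates 1 and 2, against 19.0 and 25.4 FPKM in control replicates 1 and 2, so its ratio in control replicate 1 also reflects a lower VTI1B. Among the 3 Qa-SNAREs of the set (STX7, STX12 and STX16), STX7 made up 10.03% and 10.1% of the summed FPKM in CRISPRi replicates 1 and 2, against 14.0% and 18.6% in control replicates 1 and 2. The implied length of STX7 ran from 12.4 to 16.2 kb over the libraries, so these ratios and shares carry that difference as well. These ratios come from the same comparison as the choice of STX7 and are a description.

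The R-SNAREs of this pathway gave the least certain values. VAMP7, which acts in the fusion of late endosomes with lysosomes and in lysosomal exocytosis, had 1344 and 1209 counts in CRISPRi replicates 1 and 2, against 0 and 1087 counts in control replicates 1 and 2. In CPM these were 30.0 and 29.1 in CRISPRi libraries, against 0 and 27.6 in controls. The level in the other 3 libraries predicts 27.4 counts in control replicate 1. A count of 0 there has an exact Poisson 95% interval that ends at 3.90 CPM. Of 6611 genes with at least 27.6 CPM in each of the other 3 libraries, 9 were at 0 in control replicate 1.

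VAMP7 lies in a pseudoautosomal region, sequence shared by both sex chromosomes, where reads match both copies equally well. Of 11 protein-coding pseudoautosomal genes with at least 9 counts predicted in control replicate 1, 6 had 0 counts there: GTPBP6, AKAP17A, VAMP7, SPRY3, PPP2R3B and DHRSX. The other 5, SLC25A6 among them with 302 counts, had counts. Whether the 0 of VAMP7 comes from the cells or from the counting was not tested. The log2 fold change of VAMP7, 0.42 with an SE of 0.61, became 0.10 when control replicate 1 was dropped. When control replicate 2 was dropped it became 12.75, with the lone remaining control at 0, which is no measure of size.

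VAMP8, the R-SNARE of fusion between late endosomes and of several secretory cells, was barely detected. It had 3 and 7 counts in CRISPRi replicates 1 and 2, against 4 and 1 counts in control replicates 1 and 2. The deep libraries gave at most 0.168 CPM. The 4 counts of control replicate 1 correspond to 4.23 CPM with an exact Poisson 95% interval of 1.15 to 10.8 CPM, above the other 3 libraries. VAMP8 did not pass the filter on low counts and has no fitted fold change.

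STX12, also called syntaxin 13, is the Qa-SNARE of recycling endosomes. It was at 121 and 123 CPM in CRISPRi replicates 1 and 2, against 111 and 120 CPM in control replicates 1 and 2. Groups did not overlap, but the nearest CRISPRi and control values, 121 and 120 CPM, were almost level. The log2 fold change was 0.07 (SE 0.08), with 0.02 when control replicate 1 was left out and 0.16 when control replicate 2 was.

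Of the SNAREs that return cargo from endosomes to the trans-Golgi network, STX16, the Qa-SNARE, was at 41.3 and 40.9 CPM in CRISPRi replicates 1 and 2, against 50.8 and 37.9 CPM in control replicates 1 and 2. Controls lay on either side of the CRISPRi libraries, and the log2 fold change of 0.02 (SE 0.13) turned to -0.28 when control replicate 2 was left out and was 0.12 when control replicate 1 was. The read-through gene STX16-NPEPL1 overlaps STX16 and could share its reads. It had 26 and 20 counts in CRISPRi replicates 1 and 2, against 3 and 70 counts in control replicates 1 and 2. Added together, the pair was at 41.8 and 41.4 CPM in CRISPRi replicates 1 and 2, against 54.0 and 39.6 CPM in control replicates 1 and 2, with libraries in the same order as for STX16 alone.

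STX6, a Qc-SNARE that pairs with STX16, was at 44.7 and 45.2 CPM in CRISPRi replicates 1 and 2, against 43.4 and 44.7 CPM in control replicates 1 and 2. Its log2 fold change was 0.03 (SE 0.09). It was 0.013 when control replicate 1 was left out and 0.080 when control replicate 2 was, and -0.34 after thinning of the deep libraries to the shallowest total. VTI1A, the Qb-SNARE of the same bundle, was at 60.4 and 57.7 CPM in CRISPRi replicates 1 and 2, against 64.6 and 55.8 CPM in control replicates 1 and 2. Groups overlapped and the log2 fold change was 0.04 (SE 0.09), or -0.10 and 0.09 when control replicate 2 or 1 was left out, and 0.36 after thinning.

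STX10, a Qc-SNARE related to STX6 that acts in the return of mannose 6-phosphate receptors from late endosomes, was lower but rested on control replicate 1. It had 214 and 205 counts in CRISPRi replicates 1 and 2, against 13 and 225 counts in control replicates 1 and 2. In CPM these were 4.77 and 4.93 in CRISPRi libraries, against 13.8 and 5.72 in controls. The shallow library, with an exact Poisson 95% interval of 7.32 to 23.5 CPM, stood above the other 3, which lay close together. The log2 fold change was -0.61 (SE 0.42). Dropping control replicate 1 gave -0.23 and dropping control replicate 2 gave -1.47, below the -0.84 of STX7 in that fit.

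**Figure D2:**
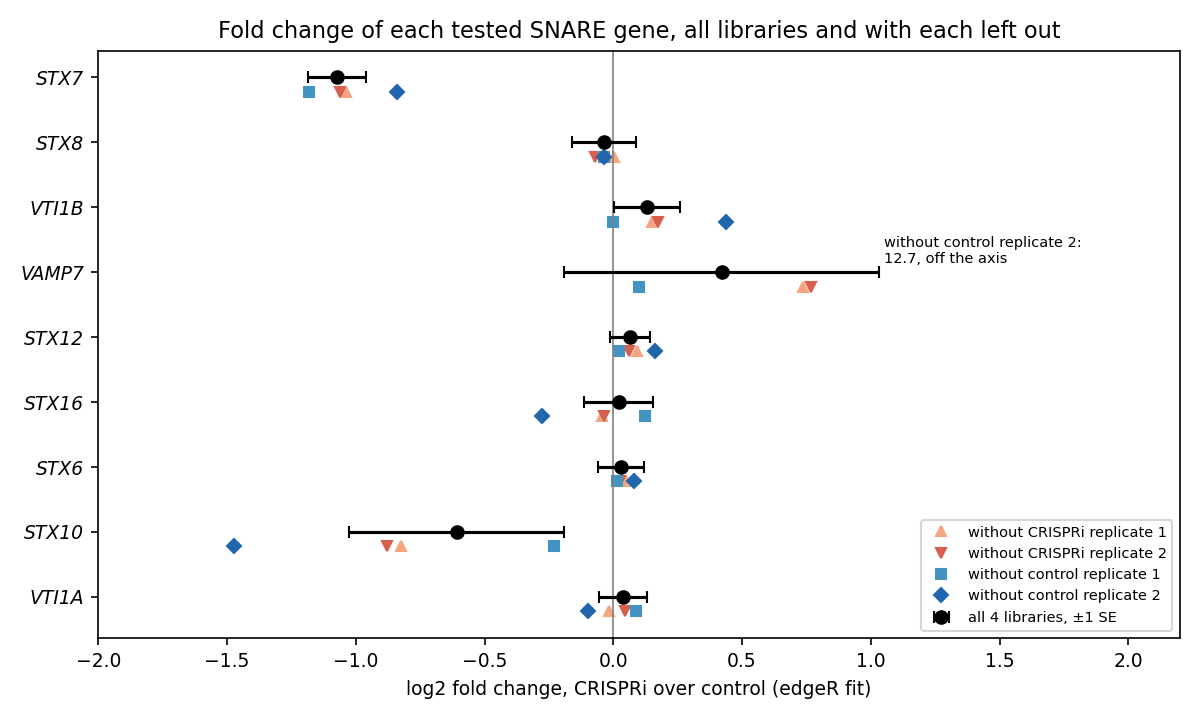
Log2 fold change (CRISPRi over control, horizontal axis) of the 9 SNARE genes with a fit. Black points with bars are the fit on all 4 libraries ± 1 SE, and coloured symbols are fits with each library left out. STX7 stays between -1.18 and -0.84, whereas STX10 and VAMP7 move with the control library left out, VAMP7 to 12.75, off the axis.

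Across the set, 9 of 10 members passed the filter on low counts. Of the 9, 1 had a log2 fold change of -1 or below (STX7), as did 1.57% of all tested genes, and 6 of the other 8 lay within 0.15 of 0. The groups did not overlap for 5 of the 9 (3 lower, 2 higher), against 34.3% of all tested genes (16.5% lower, 17.8% higher). The median log2 fold change of the 9 was 0.03, against 0.01 over all 15708 tested genes. By edgeR's quasi-likelihood test at an adjusted p under 0.05, 0 of the 9 were called, against 0.0255% of tested genes (4 lower, 0 higher) and at an unadjusted p under 0.05 there was 1, against 0.961% of tested genes. No member was called with either alternative filter on low counts (0.0248% of genes called without a filter, 0.0216% with at least 1 CPM in 2 libraries), with counts on primary chromosomes only (0.02%) or with limma-voom (0.0127%). STX7 alone was called with DESeq2 (0.0846% of genes), with the replicate number as a block (0.267%) and after thinning the deep libraries to the shallowest total (0.0792%). With 1 library left out 1 to 4 members were called, STX7 each time, with STX10, VAMP7 and VTI1B added without control replicate 2. The shares of all genes called were then 0.106% without CRISPRi replicate 1, 0.206% without CRISPRi replicate 2, 0.659% without control replicate 1 and 8.58% without control replicate 2. Since the comparison was in view when the members were chosen, nothing is read from these counts.

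Levels were compared between members per length. Over the 3 deep libraries STX12 was highest with 39.0 ± 0.453 FPKM, followed by STX8 with 25.4 ± 0.738 and VTI1B with 25.3 ± 0.255 FPKM (SD over 3 libraries of both groups). STX8 and VTI1B overlapped and cannot be ordered. VTI1A followed with 14.3 ± 0.596 FPKM and STX6 with 9.10 ± 0.0648 FPKM. STX16 (8.06 ± 0.301 FPKM) came next, and then STX7 (7.08 ± 3.06 FPKM), whose range of 5.25 to 10.6 FPKM spans STX6, STX16 and VAMP7, so that STX7 cannot be ordered against these 3. VAMP7 was at 5.50 ± 0.226 FPKM, STX10 at 3.78 ± 0.380 FPKM and VAMP8 at 0.131 ± 0.0986 FPKM. The implied length of VAMP7 was 5.25 to 5.26 kb, whereas GENCODE lists transcripts of up to 2646 bases for it and 2 copies of the gene. The FPKM of VAMP7 and its place in this order are therefore uncertain.

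The place of STX7 in that order differed by library. It ranked 8 of 10 in both CRISPRi libraries, and 8 and 5 in control replicates 1 and 2. Control replicate 1 is a poor guide to rank, since STX10 stood above STX7 there on 13 counts. The implied length of STX7 was also longest there, at 16.2 kb. STX12 ranked first in every library and VTI1A 4 in every library.

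**Figure D3:**
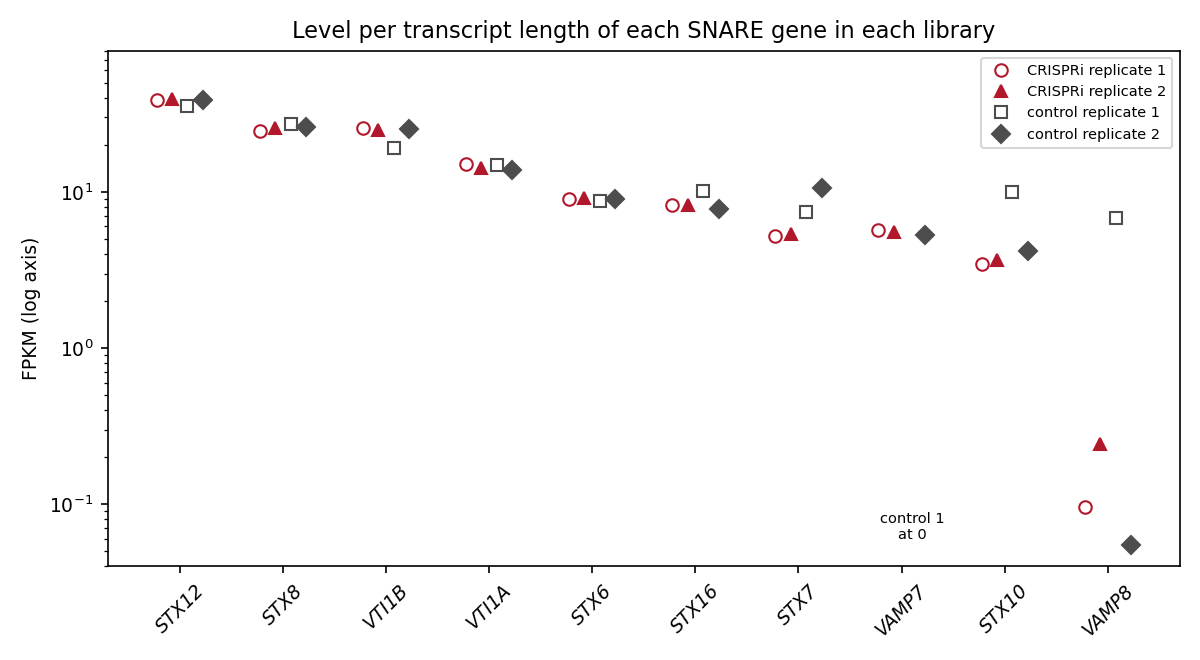
Deposited FPKM (log axis) of the 10 SNARE genes in each library, ordered by their mean over the 3 deep libraries. Red symbols are CRISPRi and grey symbols control, and VAMP7 is listed at 0 in control replicate 1. STX7 lies at 5.25 and 5.38 FPKM in CRISPRi and at 7.43 and 10.6 FPKM in control libraries.

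The wider machinery of endosomal fusion and sorting was measured by 87 further genes in 9 lists, none of them a member. These lists too were drawn up with earlier results of these data known. Of these, 83 were tested and 0 passed edgeR's quasi-likelihood test in either direction, where 0.0255% of all tested genes did. None had an unadjusted p under 0.05, against 0.961% of all tested genes, so 0 of 83 is near the share over all genes. DESeq2 and limma-voom also called 0, against 0.0846% and 0.0127% of all genes. The median log2 fold change was 0.02, with 48 genes positive and 35 negative (52.7% of all tested genes were positive) and a range from -0.46 to 0.47. For 78 of the 83 the 95% interval lay above a log2 fold change of -1, and for 79 it lay below 1, against 74.5% and 76% of all tested genes. STX11, STX19, VAMP5 and LAMP3 had at most 4 counts in any library and were not tested.

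Other SNAREs of the early secretory pathway (13 tested) had a median log2 fold change of -0.01 and had their smallest p at SEC22A, which averaged 21.7 ± 0.847 CPM under CRISPRi, against 17.4 ± 2.15 CPM under the empty vector (SD, n = 2 each). STX17, the autophagosomal syntaxin, had a log2 fold change of 0.19 (SE 0.15). Those of the plasma membrane, synaptic vesicles and endosomes (13 tested) had a median of -0.04. SNAP25, a SNARE of synaptic vesicle release, averaged 112 ± 2.92 CPM under CRISPRi, against 101 ± 11.97 CPM under the empty vector (SD, n = 2 each), and VAMP4, an R-SNARE of the trans-Golgi network, had a log2 fold change of 0.18 (SE 0.15).

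The disassembly genes NSF and NAPB were at 0.09 (SE 0.08) and 0.12 (SE 0.09) on the log2 scale, among 4 tested with a median of 0.06. SM proteins, which clasp syntaxins and guide bundle assembly, had a median of 0.02 over 8 genes. VPS33A, the SM subunit of the HOPS tether that works with STX7, averaged 91.3 ± 1.53 CPM under CRISPRi, against 86.0 ± 3.39 CPM under the empty vector (SD, n = 2 each). Its log2 fold change of 0.08 had a 95% interval of -0.11 to 0.27. SCFD2 was at 0.17 (SE 0.14).

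HOPS and CORVET tethers, which hold endosomes and lysosomes together before fusion, had a median of 0.04 over 8 genes. The HOPS subunit VPS41 was at 81.6 and 83.3 CPM in CRISPRi replicates 1 and 2, against 84.7 and 61.3 CPM in control replicates 1 and 2. Its low value was that of control replicate 2 alone. Its log2 fold change was 0.31 (SE 0.13), and 0.43, past the threshold, without control replicate 1. The CORVET subunit VPS8 was at 0.13 (SE 0.08). GARP and EARP tethers, which receive vesicles at the trans-Golgi network and at recycling endosomes, had a median of 0.01 over 5 genes, with VPS51 at -0.06 (SE 0.08) and VPS52 at 0.03 (SE 0.18).

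Retromer and ESCPE-1 genes, which sort cargo out of endosomes, had a median of -0.07 over 10 genes. SNX6 was at 72.7 and 74.3 CPM in CRISPRi replicates 1 and 2, against 86.8 and 43.5 CPM in control replicates 1 and 2, so controls lay on either side. Its log2 fold change of 0.47 (SE 0.28) became 0.76, past the threshold, without control replicate 1. SNX1 was at -0.26 (SE 0.14). Endosomal RAB GTPases and effectors had a median of 0.05 over 13 genes. RAB5C, a GTPase of early endosomes, was at 90.6 and 158 CPM in CRISPRi replicates 1 and 2, against 186 and 165 CPM in control replicates 1 and 2. Here CRISPRi replicate 1 stood apart from the other 3 libraries. The log2 fold change of -0.46 (SE 0.30) became -0.93, past the threshold, without CRISPRi replicate 2. RBSN, an effector of early endosome tethering, was at 0.13 (SE 0.08).

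Endosomal cargo receptors and lysosomal membrane proteins had a median of 0.02 over 9 tested genes. The sorting receptor SORT1 averaged 178 ± 2.15 CPM under CRISPRi, against 159 ± 8.31 CPM under the empty vector (SD, n = 2 each). Its log2 fold change was 0.16, with 95% limits of -0.03 and 0.35. LAMP2 was at 0.10 (SE 0.09). Without control replicate 2, where 8.58% of all genes passed, VAMP1 (1.28) and VAMP3 (-1.10) from the list of other SNAREs passed as well. VAMP3, an R-SNARE of recycling endosomes, was at 10.1 and 10.1 CPM in CRISPRi replicates 1 and 2, against 22.2 and 9.56 CPM in control replicates 1 and 2, so that its difference lay in the shallow library.

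**Figure D4:**
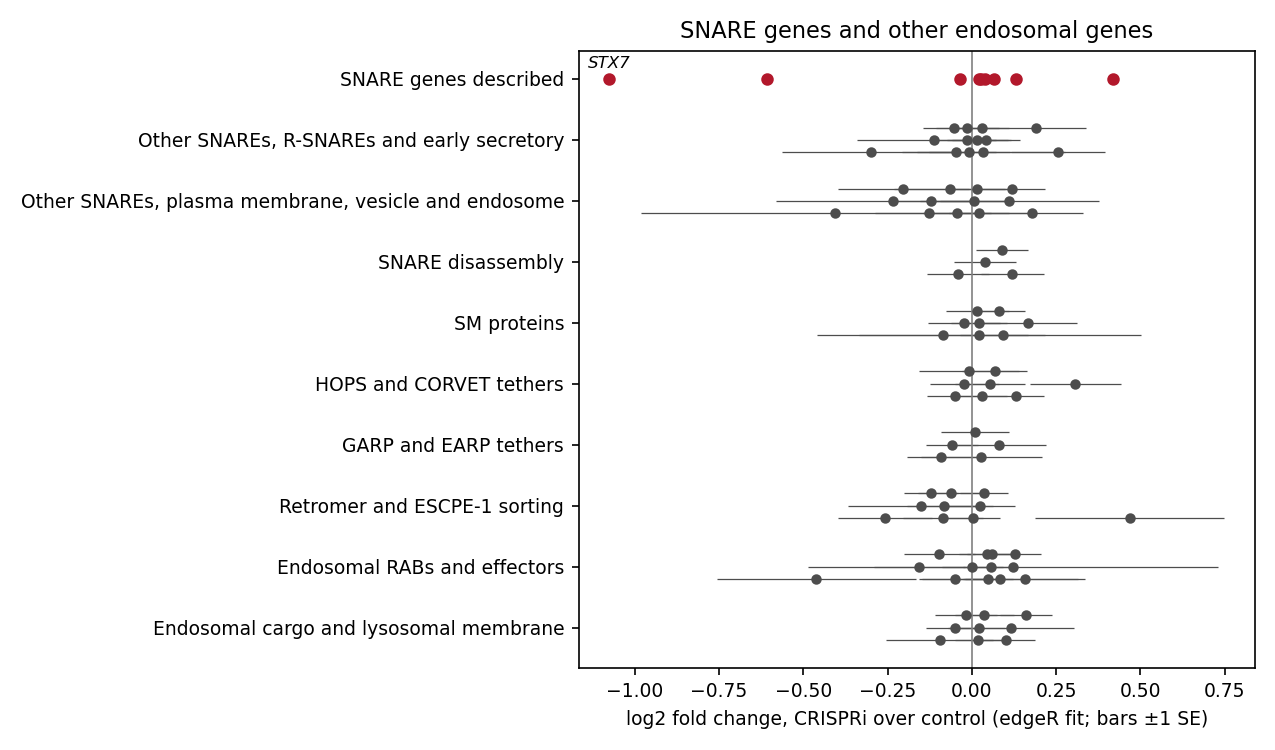
Log2 fold change (CRISPRi over control, horizontal axis) of the 9 fitted SNARE genes (red, top) and of 83 other genes in 9 lists (grey, bars ± 1 SE). The grey points run from -0.46 to 0.47, and STX7 lies at -1.07.

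The genes with the most similar profile to STX7 were taken from 9970 other genes with a mean of at least 10 CPM, by the distance between log2 CPM values centred on their 4-library mean. They were CADM1, URGCP, GFPT1, MRPS33 and ATP8A1, at distances of 0.222, 0.289, 0.299, 0.404 and 0.429. CADM1, a synaptic adhesion molecule, was at 445 and 466 CPM in CRISPRi replicates 1 and 2, against 733 and 874 CPM in control replicates 1 and 2. GFPT1, the entry enzyme of the hexosamine pathway, was at 92.1 and 88.2 CPM in CRISPRi libraries, against 161 and 161 CPM in controls. ATP8A1, a phospholipid flippase, was at 267 and 283 CPM in CRISPRi libraries, against 414 and 439 CPM in controls. In each of these genes both CRISPRi libraries lay below both controls, as the choice by likeness to STX7 requires. Pearson's r with STX7 over the 4 libraries ran from 0.976 to 0.999, which describes 4 points shared by all genes.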

How the data were processed

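The authors deposited 1 table per library without a header, with a read count (whole numbers) and a second value per gene, identified here as FPKM from the values themselves: for 2423 of 2423 genes with a single listed transcript and at least 20 counts, CPM divided by that value gave the same length in all libraries within 10%. The submitters' processing notes name hg38, edgeR and limma. Aligner, counting tool and strand setting are not given in the sources used here, so overlapping and duplicated genes are uncertain. Deposited counts were summed per symbol over all rows.

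The fit of CRISPRi against control used edgeR 4.0.16 (R 4.3.3) with group as its only term. Low counts were filtered by filterByExpr, libraries were scaled by TMM, and robust quasi-likelihood p-values were adjusted by Benjamini-Hochberg over 15708 genes at 0.05. Standard errors and 95% intervals derive from the F statistic. For 1694 genes, 14 of them pathway genes and 0 members, edgeR reports a larger p than F alone gives, since it allows no p below that of Poisson counting, and their intervals are narrower than their p. With 2 libraries against 2, no exact permutation test is given. FPKM values were described, not tested, since 602 to 954 rows of a library list FPKM 0 beside a count above 0. The test was also run on simulated counts with the same spread for every gene and library. These do not model how control replicate 1 stood apart, so nothing is read from that run.

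The members and lists were chosen with earlier results of these data known. Named genes were all members, the 2 genes with the smallest p in each list, and the 5 nearest to STX7 in profile. STX16-NPEPL1, ARG2, the pseudoautosomal genes, the neighbours of STX7 and the genes called with a library left out were named once their values were known. Not every gene called with a library left out is reported here. Alternatives tried were scaling by median of ratios or by total count, 2 other filters, DESeq2 1.42.0, limma-voom (limma 3.58.1), a replicate block, each library left out, primary chromosomes only, the largest row per symbol, and thinning of deep libraries to the shallowest total.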

Additional observations from a re-analysis of the deposited data

How the results depend on the processing

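STX7 kept its sign under every alternative run. Leaving out a library in turn gave -1.18 to -0.84 for STX7, 1 to 4 members called, 0 to 3 pathway genes called, 15 to 798 genes lower and 2 to 580 genes higher, against 0 members, 0 pathway genes, 4 lower and 0 higher with all libraries. A lone library left in a group is assumed to vary like the other group. DESeq2 called 1 member, 11 genes lower and 1 gene higher (0.0846% of genes). The replicate block called 1 member, 25 genes lower and 17 genes higher (0.267%). Thinning, 1 random draw, called 1 member and 8 genes lower (0.0792%), and left STX10 without a value. By limma-voom 2 genes were lower. The single member called was STX7 in each.

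Signs turned for members close to 0. STX16 was at -0.029 by DESeq2, at -0.035 under the replicate block, at -0.071 after thinning and at -0.28 to 0.12 over the libraries left out. STX8 was at 0.037 after thinning and at -0.072 to 0.0026 over the libraries left out. STX6 was at -0.34 after thinning, and VTI1A at 0.36 after thinning and at -0.10 to 0.087 over the libraries left out. The cause was not tested. Of 111 values of the other members under alternatives, 94 kept their sign and moved by less than the spread between replicates. That spread was wide for VAMP7 (4.11 on the log2 scale) and STX10 (0.846), so the count says little about these genes. Several alternatives changed only the scaling, the filter or the rows used. The labels give replicate numbers without saying that they pair libraries, and the deviations of equal numbers correlated at -0.028. The depth of control replicate 1 limits genes under 3.17 CPM most, and counting error stays wide above that level. At the 13 counts of STX10 there, the exact Poisson 95% interval ran from 7.32 to 23.5 CPM.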

Other observations

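The genes beside STX7 on chromosome 6 were looked at after its values were seen. Within 500 kb the files list 19 other genes, of which 10 had no count in any library and 5 were tested, with 0 past the threshold by edgeR's quasi-likelihood test. Over all tested genes 0.0255% passed, so nothing is read from that count. The nearest tested neighbour, the monooxygenase-like gene MOXD1, lies 44393 bp away and had 11 and 26 counts in CRISPRi replicates 1 and 2, against 3 and 33 counts in control replicates 1 and 2, too few to place it. SLC18B1, a vesicular polyamine transporter, lies 255897 bp away and had a log2 fold change of 0.13 (SE 0.17). The ribosomal protein gene RPS12 was at -0.08 (SE 0.11) and CCN2, a secreted matricellular protein, at 0.03 (SE 0.12).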
